A study of Mus musculus with 4 samples.

Results

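Mouse dendritic cell (DC) cultures of 2 kinds, both exposed to bacterial lipopolysaccharide (LPS), were compared: sDCs, formed on a layer of mesenchymal stromal cells, and maDCs, grown with cytokines and matured with LPS. They make up 2 of the 4 arrays of the series, and were chosen by their titles, by the LPS given to both and by the slide that both arrays share. Of 41054 probes with a usable value on every array, the 28028 that the scanner software marked as well above background on at least 1 of the 2 arrays were kept. All cells came from BALB/C bone marrow. For maDCs, marrow cells grew with 5 ng/mL of IL-4 and 10 ng/mL of GM-CSF, the loosely adherent clusters of day 4 were selected on magnetic beads for CD11c, and these immature cells (imDCs, the array of another group) were then kept for a further 4 to 5 days with 10 ng/mL of LPS. For sDCs, haematopoietic progenitors depleted of lineage-positive cells were seeded on monolayers of Sca-1+CD117-Lin- stromal cells, received LPS on day 4 and were collected on day 9. The fourth array holds sDCs made alike with a neutralizing antibody to IL-10, at 10 µg/mL every 2 days. Whether GM-CSF and IL-4 were given to sDCs, their LPS dose, any selection for CD11c, and how they were parted from the stromal layer are not given in the sources used here. Starting cells, stroma, cytokines, LPS dose and time in culture therefore cannot be told apart in any difference below.

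DCs take up antigen, and a microbial signal such as LPS makes them mature: they load peptides on MHC class II molecules, raise costimulatory ligands and cytokines for T cells, and gain the receptor CCR7, which guides them to lymph nodes. GM-CSF with IL-4 is the usual cocktail for growing such cells from marrow, and IL-4 acts through the transcription factor STAT6. Macrophages, their relatives, depend on the receptor CSF1R, clear debris and apoptotic cells, and in tissues carry complement C1q and scavenger receptors, while mesenchymal stromal cells secrete collagen and other extracellular matrix.

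Each group had 1 array, so no spread between cultures can be given, no test was possible, and genes were described at a fixed size of 2-fold. A level below is the log2 of the processed signal minus the 75th percentile of the array, so that 0 lies at that percentile, and a difference is the sDC level minus the maDC level in log2 units. Genes "stood at" a level and "differed by" a difference, and a bare value in parentheses after a gene is its difference. Levels of different genes come from different probes and are not to be set against each other. The software marked 61.2% of spots as well above background for maDCs and 66.0% for sDCs. Probes printed on 10 spots had, in the median, an SD of 0.047 (maDC) and 0.056 (sDC) log2 units among them, which covers spotting and scanning alone. A probe detected on only 1 of the pair gives a lower bound of the fold, written "at least". The imDC array lay on another slide and is given for context, as is the antibody array, which is another stroma-formed culture and no replicate.

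Of 19806 named genes, 15000 had a value: 13234 measured on both arrays, 1207 with a bound towards sDCs and 559 with a bound towards maDCs. At 2-fold or more, 2080 genes (13.9%) were higher in sDCs and 2451 (16.3%) were lower. Of these, 1694 and 1963 were measured on both arrays. The shares of 13.9% and 16.3% are the background for every list count below. The other 10469 genes are counted as within 2-fold, and list members are counted alike. They include bounds smaller than 2-fold, whose true difference may be larger. A bound that would have pointed the other way was set to 0. For such genes the side of the bound tells only on which array the probe was detected. The median gene was at 0.00. Large differences were more often towards maDCs, with 327 genes at least 16-fold lower in sDCs against 143 at least 16-fold higher. Both counts include bounds. The lowest detected level was -5.44 in maDCs and -6.04 in sDCs, so bounds could reach further towards maDCs. The part of this in the 2 counts was not tested. A further measured probe existed for 1300 of the genes past 2-fold: all probes pointed the same way in 84.7% of them, and 32 had one that was 2-fold or more the opposite way. With the antibody-treated sDC array in the place of the sDC array, and the same maDC array, 2020 genes were higher (13.7%) and 2469 lower (16.8%).

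The label DC was first set against marker genes, and conventional DC markers were low in the stroma-formed cultures. Itgax, which encodes CD11c, stood at 3.70 in maDCs and -1.60 in sDCs (-5.30, -3.72 on another probe), still well above background. Zbtb46, a transcription factor gene of conventional DCs, stood at -1.20 and -4.49, and Flt3, the DC growth factor receptor, at -3.41 and -5.41. Of 18 conventional DC genes with a value 12 were lower and 2 higher (median -2.46 or lower). The 2 were Cadm1 (4.54) and Sirpa (1.26), and Clec9a and Cd209a were dim on both arrays. Irf8 lay within 2-fold (-0.85, -1.16 on another probe) where Irf4 did not. The list of mature migratory DCs was lower in 13 of 15 cases (median -5.72), with Socs2, Ccr7, Il4i1, Nudt17 (-6.33) and Serpinb6b (-5.72) after the CCR4 ligands, and Birc3 and Anxa3 within 2-fold. Of its 16 listed genes 9 also stand in other lists, as do 11 of the 20 listed conventional DC genes. The summed level of a list is the log2 of its genes' added signals. It was 9.32 in maDCs and 8.66 in sDCs for the conventional DC list, and 7.71 and 9.27 for the tissue macrophage list. A sum adds signals of different probes, so sums of different lists are not to be set against each other. Cst3 carried most of the conventional DC sum in maDCs, and Cst3, Id2, Sirpa and Irf8 nearly all of it in sDCs. That sum thus says little of Itgax, Zbtb46 and Flt3, which were low in sDCs. The name sDC is therefore used here as the label of a culture. In such bulk samples fewer cells of a type and less RNA per cell cannot be told apart.

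**Figure D1:**
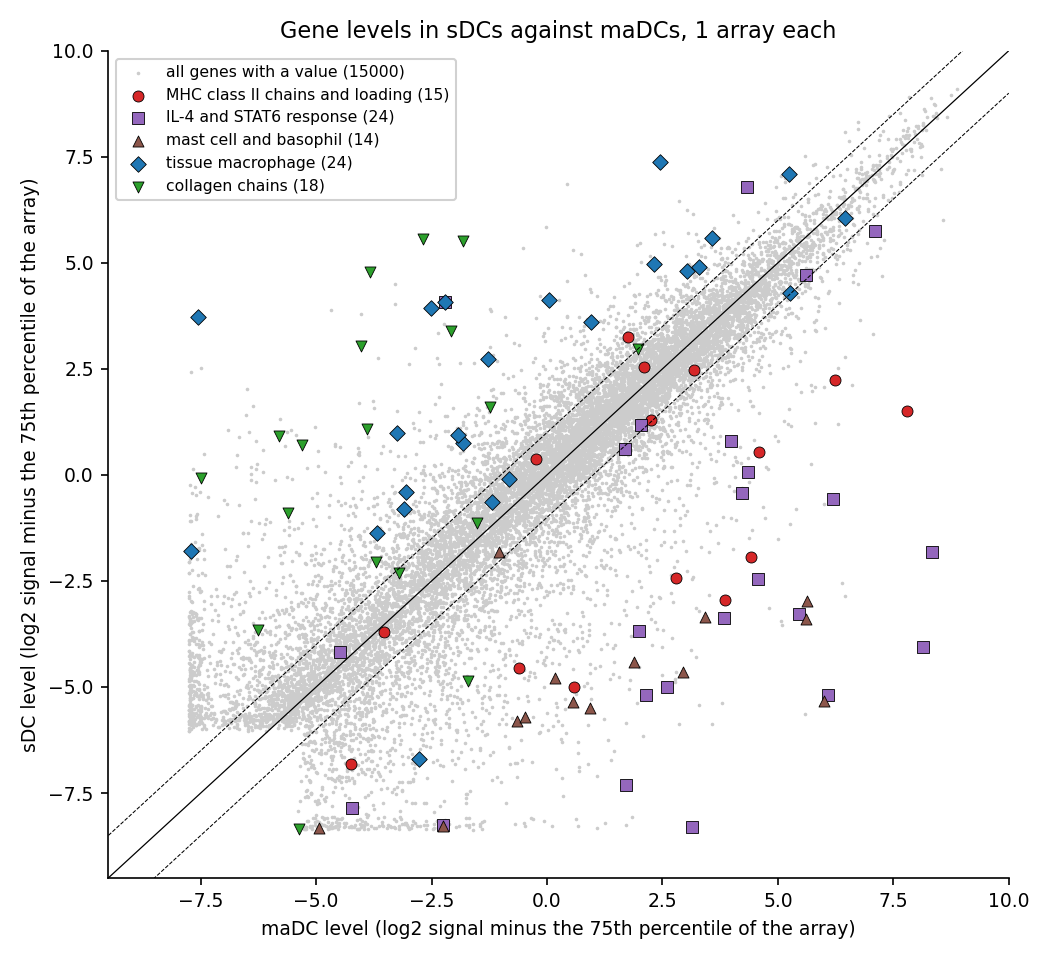
Each point is a gene, with its level on the maDC array (x axis) and on the sDC array (y axis), in log2 signal minus the 75th percentile of the array; the solid line marks equal levels and the dashed lines 2-fold. Class II, IL-4 response and mast cell genes lie mostly below the lines, with Ccl17 at 8.15 and -4.05, and collagen and tissue macrophage genes mostly above them, with Col3a1 at -3.83 and 4.77.

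The most strongly maDC-biased gene measured on both arrays was Ccl17, the chemokine that draws CCR4-bearing T cells, with a level of 6.45 in imDCs, 8.15 in maDCs, -4.05 in sDCs and -4.16 in antibody-treated sDCs, a difference of -12.20 (probe at mm9 chr8:97335770-97335829). It was thus high on both arrays of cytokine-grown cells and low on both stroma-formed ones. Cpa3, a mast cell carboxypeptidase, came next: it stood at 5.99 in maDCs and -5.33 in sDCs (-11.32, chr3:20115674-20115733). The chitinase-like genes Chil4 and Chil3, whose near-identical sequences make single values uncertain, were lower by 2481-fold and 1132-fold. Plet1 differed by -11.21, but another probe gave -5.53.

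The other genes among the 15 largest in this direction have varied roles. Gzmb encodes the cytotoxic protease granzyme B (-9.46) and Il12b the p40 chain of IL-12 and IL-23 (-9.30). Prss34, a basophil and mast cell protease, and Hdc, the enzyme that makes histamine, differed by -9.01 and -8.59. Aldh1a2, which makes retinoic acid, differed by -8.73, and Enpp2, the secreted enzyme autotaxin, by -8.70. Syt7, a calcium sensor of vesicle fusion, Car2, a carbonic anhydrase, Scin, an actin-severing protein, and Dok7, a signalling adaptor, lay between -9.16 and -8.62. The largest bounds were those of Ccl22, the second CCR4 ligand (at least 579-fold lower), Tcaf2 (at least 278-fold), Cyp11a1, which starts steroid synthesis (at least 236-fold), D630039A03Rik (at least 216-fold), the transcription factor gene Irf4 (at least 216-fold) and Tnnt2 (at least 181-fold). All 6 were not well above background in sDCs.

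Among genes measured on both arrays, matrix genes headed the sDC side. Col3a1, a fibrillar collagen chain, stood at -3.83 in maDCs and 4.77 in sDCs, a difference of 8.61 (mm9 chr1:45405589-45405648), and at 3.79 on the antibody array. Ccn2, a matricellular growth factor once called CTGF, went from -4.67 to 3.90 (8.57), and Col1a1 from -2.69 to 5.57 (8.25, chr11:94813075-94813134). Sparc, Fbln2, Col1a2, the collagen chaperone gene Serpinh1, Col8a1, the myosin light chain gene Myl9, the pericyte antigen gene Cd248 and the protease inhibitor gene Timp2 were also among the 15 largest, with differences from 5.87 to 7.81. The remaining 4 are known from macrophages: Gas6, which bridges apoptotic cells to the receptor MERTK (6.44), F13a1, a transglutaminase chain (6.44), the mannose receptor gene Mrc1 (6.27) and Sirpb1a, of the signal-regulatory proteins (5.87, 6.10 on another probe). Bounds were largest for the folate receptor gene Folr2 (at least 573-fold higher), the integrin gene Itga8 (at least 249.6-fold), Prss23 (at least 232-fold), Igf2 (at least 178-fold), and the matrix genes Tnc and Thbs2 (at least 133-fold and 116-fold).

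MHC class II chain genes and their coactivator gene were lower in sDCs. Ciita, the coactivator that switches class II genes on, stood at 0.82 in imDCs, 0.58 in maDCs, -5.00 in sDCs and -4.85 with the antibody, a difference of -5.57 (mm9 chr16:10526303-10526362). The chain genes showed the same split between cytokine-grown and stroma-formed arrays. H2-Aa stood at 3.86 in maDCs and -2.94 in sDCs (-6.80, chr17:34420627-34420686), H2-Eb1 at 4.41 and -1.94 (-6.35), and H2-Ab1 at 6.23 and 2.23 (-4.0, with -4.38 to -4.24 on its 3 other probes). The invariant chain gene Cd74, whose product guides new class II molecules, stood at 7.79 and 1.51 (-6.28). In every one of these 5 genes the imDC level lay within 2-fold of the maDC level and the antibody-treated sDC level within 2-fold of the sDC level.

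Peptide exchange factors split. H2-DMb1 and H2-DMb2, the beta chains of the catalyst of peptide loading, differed by -4.05 and -3.93, and H2-Oa, part of its inhibitor, by -5.23, whereas the alpha chain gene H2-DMa differed by -0.95. Rfx5, Rfxap and Rfxank, the DNA-binding subunits that recruit CIITA, stayed within 2-fold (-0.19, 0.45 and 0.61), although another probe of Rfxap gave 1.34. Marchf1, a ubiquitin ligase that sends class II molecules to degradation, was higher by 1.49. In all, 9 of 15 members with a value were lower and 1 higher, with a median of -3.93 or lower, beside 16.3% and 13.9% of all genes. H2-Eb2 was dim on both arrays.

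A match of letters is given here as a description of the sequence alone. Class II promoters share a conserved Y box, an inverted CCAAT element bound by the factor NF-Y next to the sites that hold CIITA's partners. RefSeq promoters of the build GRCm38.p6, running from 250 bases before a start to 50 after it, were searched on both strands for CTGATTGG. The box was found in 4 of the 12 list members covered (33.3%): H2-Aa, H2-Eb1, H2-Eb2 and H2-Oa. The share was 4.70% among all 27025 genes of that table, 6.03% among the 11913 with a value, among those 2-fold or more lower 7.17% and among those higher 4.10%. The 250 bases before the start of the 3 measured genes are shown 5′ to 3′ on the gene's strand, with the Y box in capitals, because these are the measured class II genes that carry it. The box begins 51, 62 and 46 bases before the start. They lie at chr17:34287824-34288073, minus strand, chr17:34305617-34305866, plus strand, and chr17:34092129-34092378, plus strand.
H2-Aa: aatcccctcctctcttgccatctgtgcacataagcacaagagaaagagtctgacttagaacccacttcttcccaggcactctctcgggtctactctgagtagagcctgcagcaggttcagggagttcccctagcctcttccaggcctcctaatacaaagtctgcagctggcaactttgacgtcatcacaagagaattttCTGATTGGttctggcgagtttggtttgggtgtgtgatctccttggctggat
H2-Eb1: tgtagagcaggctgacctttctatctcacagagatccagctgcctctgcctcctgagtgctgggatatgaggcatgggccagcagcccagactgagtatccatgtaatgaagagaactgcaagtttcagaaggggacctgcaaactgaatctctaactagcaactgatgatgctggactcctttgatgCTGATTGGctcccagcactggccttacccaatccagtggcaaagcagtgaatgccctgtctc
H2-Oa: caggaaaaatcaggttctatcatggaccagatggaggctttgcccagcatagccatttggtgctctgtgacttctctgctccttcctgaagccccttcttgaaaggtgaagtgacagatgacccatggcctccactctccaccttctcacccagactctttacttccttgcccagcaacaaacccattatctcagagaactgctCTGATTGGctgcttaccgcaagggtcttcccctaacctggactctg
H2-DMb1 and H2-DMb2, also far lower in sDCs, held no exact match in this window, and neither did Marchf1.

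MHC class I genes differed less. The light chain gene B2m stood at 7.89 in maDCs and 7.63 in sDCs (-0.26). The heavy chain genes H2-K1 and H2-D1, which have near-identical relatives, differed by -0.21 and 0.38. Genes that supply peptides were lower by small and similar steps: the transporter genes Tap1 and Tap2 differed by -1.45 and -1.10, the immunoproteasome genes Psmb8, Psmb9 and Psmb10 by -1.09, -1.06 and -1.08, and its activators Psme1 and Psme2 by -1.24 and -1.29. The peptide editor gene Tapbpl was the lowest of the list (-2.29). Of 16 members 10 were lower and none was higher, with a median of -1.08.

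Costimulatory and maturation genes had 16 of 21 members lower and 2 higher (median -3.39 or lower). Of the 21, 8 also stand in other lists. Ccr7 stood at 4.06 in imDCs, 6.0 in maDCs, -0.68 in sDCs and -1.06 with the antibody. Cd40, through which T cells give help, stood at 0.32, 3.47, -1.14 and -1.38 in the same order, Cd86 at 1.97, 3.56, 0.37 and 0.29, and Cd83 at 3.54, 5.28, 1.16 and 0.78. For these 4 genes sDCs lay below not only the LPS-matured cells but also the imDCs that had met no LPS. The OX40 ligand gene Tnfsf4 differed by -6.38, Slamf1 by -6.56, Il4i1, an amino acid oxidase, by -6.42, and Fscn1, the actin bundler of DC dendrites, by -5.73. The inhibitory ligands parted, PD-L2 (Pdcd1lg2) differing by -7.32 and PD-L1 (Cd274) by -1.47. Tnfsf9, the 4-1BB ligand, was higher by 2.28. Cd70 was higher by 1.09 in sDCs, which stood at -3.99, while the antibody-treated culture stood at -5.68, below the maDC level of -5.07.

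**Figure D2:**
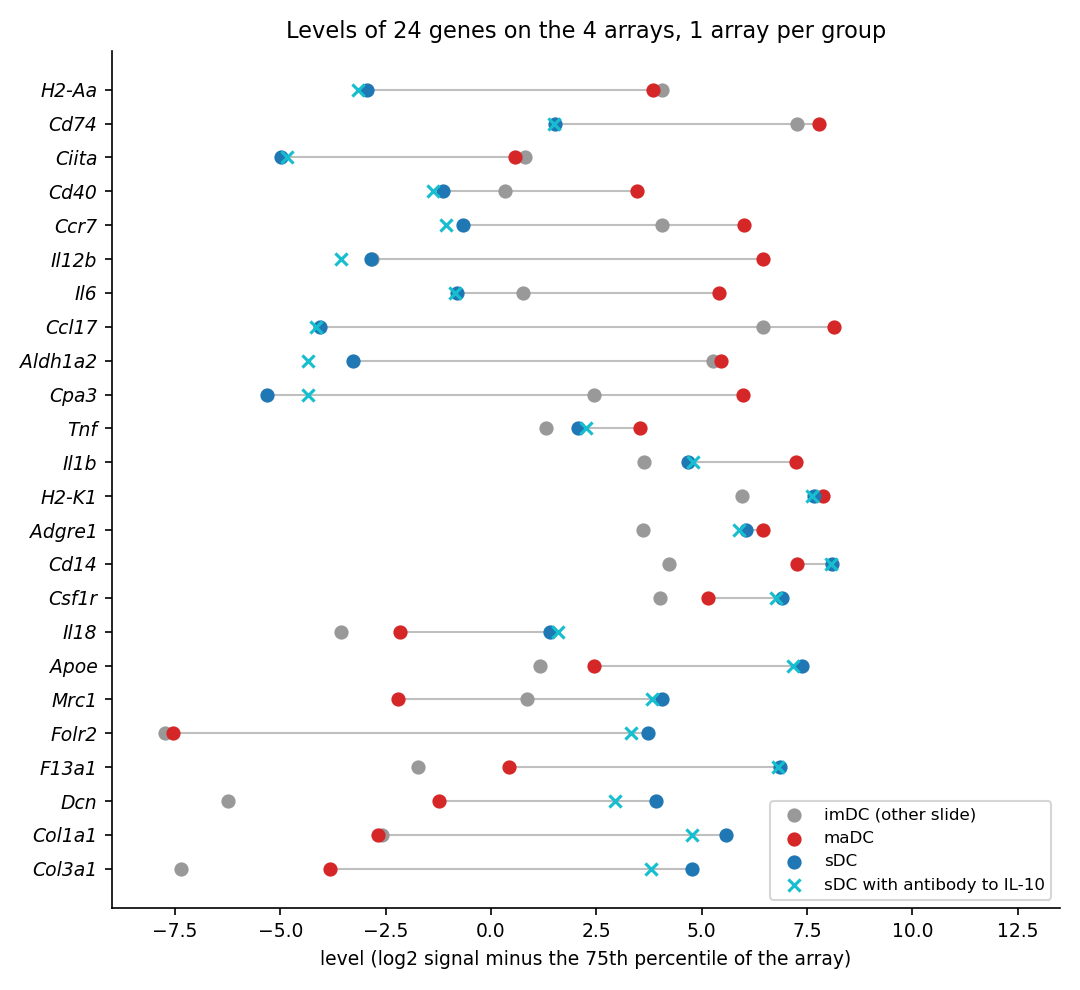
Levels of 24 genes (rows) on the imDC, maDC, sDC and antibody-treated sDC arrays, in log2 signal minus the 75th percentile of the array; a line joins maDC and sDC. The 2 stroma-formed arrays lie close together, the widest gap being that of Aldh1a2 (-1.07, antibody minus sDC), and Ccl17 ranges from -4.16 to 8.15.

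Cytokine genes of the DC to T cell axis were lower in sDCs. Il12b stood at 6.45 in maDCs, -2.85 in sDCs, -3.56 with the antibody and -2.82 in imDCs (mm9 chr11:44227121-44227180). Il6 stood at 5.40 and -0.82 in maDCs and sDCs, Il1a at 4.82 and -3.13, and Il12a, the p35 chain, at 1.16 and -4.11. Il23a, Ifng, Csf2 and Ifnb1 were not well above background in sDCs and at least 14.3-fold, 104-fold, 62.9-fold and 29.0-fold lower there. Tnf and Il1b differed less than these: Tnf stood at 3.54 and 2.07, and Il1b at 7.25 and 4.68. Il18, a cytokine stored as a precursor, was the 1 member higher, at -2.17 in maDCs, 1.40 in sDCs and 1.58 with the antibody. Il15 and Il27 lay within 2-fold (-0.08 and -0.08). Of 20 members 15 were lower and 1 higher, with a median of -2.32.

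Chemokines were not uniformly lower, with 12 of 28 lower, 4 higher and 12 within 2-fold (median -0.72). Besides the CCR4 ligands, those lower included the membrane-bound Cx3cl1 (-5.85), the interferon-inducible CXCR3 ligands Cxcl10 (-5.76) and Cxcl11 (at least 35.6-fold), and the eosinophil attractant Ccl24 (-5.66). Several attractants of monocytes and neutrophils lay within 2-fold. Ccl2 stood at 7.82 in maDCs and 7.19 in sDCs. Ccl7 differed by -0.80, Ccl3 by -0.86, Ccl4 by -0.44, Cxcl1 by -0.54 and Cxcl2 by -0.13. Cxcl12, the stromal niche factor, was at least 38.4-fold higher in sDCs, Ccl11 at least 4.28-fold, Ccl8 by 1.76 and Cxcl14 by 1.57.

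Chemokine receptors went both ways (5 of 17 higher, 5 lower, median -0.16). Ccr2, the receptor gene of classical monocytes, stood at -0.04 in maDCs and 2.5 in sDCs (2.55), and Cx3cr1 at -1.77 and 0.97 (2.74). The scavenging receptor gene Ackr3 was higher by 4.24. Ccr7 was lower by the largest step, then Cxcr5 (-4.72), Ccr9 (-3.0) and Ccr6 (-2.32), while Xcr1, the receptor gene of cross-presenting DCs, lay within 2-fold (-0.16). Cx3cr1 was therefore higher in the culture in which the gene of its ligand was lower.

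Genes that answer to IL-4 through STAT6 formed the process list with the lowest median, at -5.15 or lower, with 19 of 24 members lower and 2 higher. Of the 24, 18 also stand in other lists. Besides Ccl17, Ccl22 and the chitinase-like genes, Mgl2, a C-type lectin of IL-4-grown DCs, stood at 2.60 in maDCs and -4.99 in sDCs (-7.59). Rnase2a differed by -7.21, and the genes of the feedback inhibitors of cytokine signalling Socs2, Cish and Socs1 by -7.02, -6.75 and -4.29. Retnla was at least 13.7-fold lower. Batf3 and Egr2, transcription factor genes, differed by -4.64 and -3.17. The 2 exceptions are also macrophage genes: Mrc1 stood at -2.20 and 4.07, and Arg1 (arginase) at 4.33 and 6.78. Il4ra, which encodes the IL-4 receptor chain, was higher by 1.15, and the Il4 gene itself stood at 0.17 in maDCs and -4.79 in sDCs. IL-4 is recorded in the medium of maDCs and not for sDCs. Mast cell and basophil markers, described at the end, were also lower in sDCs, in 13 of 14 cases, and their part in these values was not tested.

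The STAT6-type palindrome, TTC and GAA parted by any 4 bases, stood in the promoters of 4 of the 17 list members in the RefSeq table (23.5%), against 8.01% of all 27025 genes and 6.73% of the 11913 with a value. The 2 most strongly lower ones that hold it are shown over the 250 bases before their start, with the palindrome in capitals. They lie at chr8:94810203-94810452, plus strand, and chr19:29410669-29410918, plus strand (GRCm38.p6), and the palindrome begins 154 and 82 bases before the start.
Ccl17: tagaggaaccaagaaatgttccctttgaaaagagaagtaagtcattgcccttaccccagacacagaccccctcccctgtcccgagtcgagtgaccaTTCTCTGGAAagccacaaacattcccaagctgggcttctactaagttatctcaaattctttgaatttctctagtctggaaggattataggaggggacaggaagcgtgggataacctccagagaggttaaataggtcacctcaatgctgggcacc
Pdcd1lg2: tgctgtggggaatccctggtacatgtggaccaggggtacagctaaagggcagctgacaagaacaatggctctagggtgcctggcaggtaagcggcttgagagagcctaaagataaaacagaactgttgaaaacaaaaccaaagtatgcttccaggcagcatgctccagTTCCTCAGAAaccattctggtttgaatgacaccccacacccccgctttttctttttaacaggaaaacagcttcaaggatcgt
Retnla and Fcer2a held it as well, and Fcer2a lay within 2-fold (0.31). Ccl22, Chil3, Irf4, Mgl2 and Mrc1 held no match in this window.

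GM-CSF signals through STAT5. A joint list of GM-CSF and CSF1 pathway genes was lower in 8 of 14 cases and higher in 1 (median -1.51). Of the 14, 3 also stand in other lists. Cish, a STAT5 target, was far lower, Bhlhe40, a GM-CSF-induced transcription factor gene, differed by -3.55, and Stat5a by -2.43. The receptor chain gene Csf2ra differed little (-0.57), while Csf2rb and its near-identical copy Csf2rb2 differed by -1.99 and -1.88. The 1 higher member was Csf1r, the macrophage growth factor receptor, at 5.15 in maDCs and 6.90 in sDCs, a difference of 1.75 with 1.61 and 2.15 on 2 other probes. Of the genes of its ligands, Csf1 differed by -2.15 and Il34 was at least 1.46-fold higher.

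Of 33 interferon-stimulated genes 27 were lower in sDCs and 0 higher, with a median of -1.80. Rsad2, an antiviral enzyme, stood at -1.17 in imDCs, 3.61 in maDCs, -0.07 in sDCs and 0.14 with the antibody. Ifit1, which binds viral RNA caps, stood at 3.10 and -0.24 in maDCs and sDCs, Isg15, a ubiquitin-like modifier, at 3.42 and 0.64, and Oasl1 at 5.80 and 1.22. For Rsad2, Ifit1 and Isg15 the sDC level lay between those of imDCs and maDCs. The guanylate-binding protein genes Gbp5, Gbp3 and Gbp2 had differences of -4.68, -4.54 and -3.14. The 6 within 2-fold were Oas2 (-0.11), Trim30a (-0.66), Bst2 (-0.69), Ifi35 (-0.81), Ddx58 (-0.83, with -1.75 to 0.61 on other probes) and Stat2 (-0.95).

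The interferon-stimulated response element, searched on both strands as GAAA repeated after any 2 bases, was found in 15 of the 25 promoters of this list in the RefSeq table (60%), against 3.99% of all 27025 genes and 3.82% of the 11913 with a value. It stood in 4.76% of the genes 2-fold or more lower in sDCs and 3.43% of those higher. The element is shown in capitals, here as read on the gene's strand, in the 250 bases before the start of 3 genes with large differences, at chr12:26456453-26456702, minus strand, chr19:34640639-34640888, plus strand, and chr3:142496684-142496933, plus strand (GRCm38.p6). Rsad2 and Gbp5 hold 1 match each, 120 and 165 bases before the start, and Ifit1 holds 2, at 104 and 85.
Rsad2: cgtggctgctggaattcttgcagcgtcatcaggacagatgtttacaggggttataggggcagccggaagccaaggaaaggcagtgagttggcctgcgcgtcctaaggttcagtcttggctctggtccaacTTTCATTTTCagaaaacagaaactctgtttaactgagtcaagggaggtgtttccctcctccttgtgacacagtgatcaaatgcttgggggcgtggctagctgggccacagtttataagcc
Ifit1: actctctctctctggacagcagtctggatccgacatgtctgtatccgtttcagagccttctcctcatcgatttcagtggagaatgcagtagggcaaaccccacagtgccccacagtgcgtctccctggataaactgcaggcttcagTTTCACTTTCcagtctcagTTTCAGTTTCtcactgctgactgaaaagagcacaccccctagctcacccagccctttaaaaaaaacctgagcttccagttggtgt
Gbp5: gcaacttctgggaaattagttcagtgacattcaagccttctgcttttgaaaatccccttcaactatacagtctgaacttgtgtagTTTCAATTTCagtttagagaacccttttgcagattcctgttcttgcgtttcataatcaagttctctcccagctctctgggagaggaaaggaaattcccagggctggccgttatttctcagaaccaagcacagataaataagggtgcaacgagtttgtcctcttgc
Stat2, Ddx58, Trim30a and Bst2, which lay within 2-fold, also held it.

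LPS is sensed by TLR4 with CD14 and MD-2 and relayed through NF-kB. The sensing end was present in both cultures: Cd14 stood at 7.27 in maDCs and 8.10 in sDCs, Tlr4 at 1.61 and 2.16, and Ly96 (MD-2) at 2.55 and 3.03. The adaptor gene Myd88 differed by -0.09. Of 23 toll-like receptor and adaptor genes 7 were higher in sDCs and none lower (median 0.49). Ly86 and Cd180, which pair in a receptor related to TLR4, were higher by 3.42 and 1.96 (0.74 on another probe), and the sensors of single-stranded RNA Tlr8 and Tlr7 by 3.23 and 1.61. Among 19 NF-kB subunit and feedback genes, 10 were lower and 9 within 2-fold (median -1.19). Rel stood at -0.62 in maDCs and -5.27 in sDCs. Nfkb1, Nfkb2 and Relb differed by -2.42, -2.32 and -1.89, and Rela by -0.22. The inhibitor genes Nfkbia and Tnfaip3 differed by -0.86 and -1.65.

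IL-10 restrains DC maturation through STAT3, and the antibody array of the series addresses it. Il10 stood at -2.15 in maDCs and -3.71 in sDCs. Its receptor chain gene Il10ra differed by 0.11 and Il10rb by 1.24, Stat3 by 0.08 and Socs3 by 0.18. In this list 3 of 16 were higher and 4 lower (median -0.15), beside 13.9% and 16.3% of all genes. Genes tied to tolerance also went both ways, with 5 of 24 higher and 9 lower (median -0.32). Ido1, which depletes tryptophan, was at least 80.6-fold lower and not well above background in sDCs. Ido2 differed by -4.34, Tgfb2 by -3.17 and Ptgs2 (cyclooxygenase 2) by -2.64, whereas Tgfb3 was higher by 3.67, Vsir (VISTA) by 2.71, the inhibitory receptor gene Pirb by 1.69 and Nt5e (CD73) by 1.37. Nos2 (-0.58), Hmox1 (-0.06) and Tgfb1 (0.06) lay within 2-fold.

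**Figure D3:**
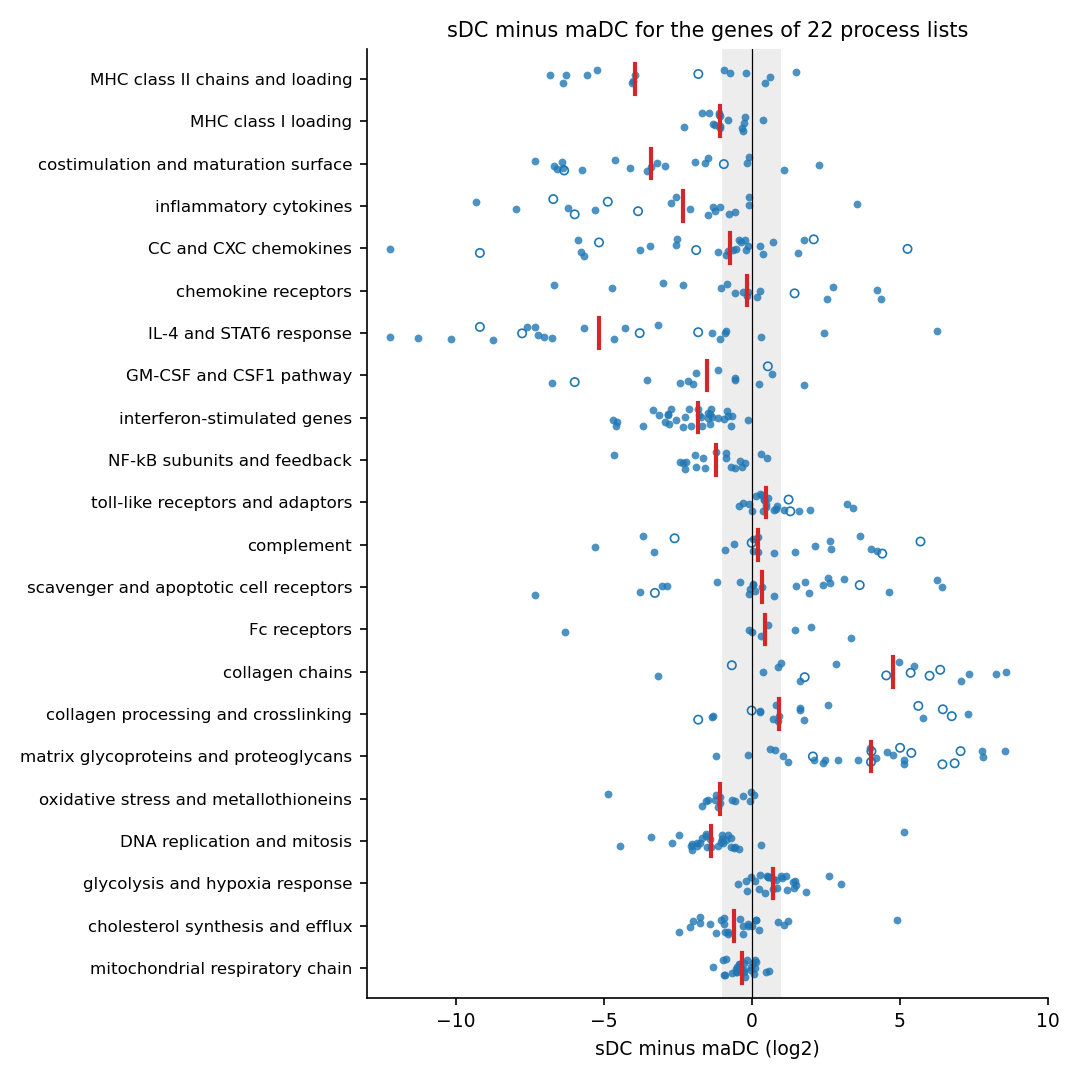
Difference between sDCs and maDCs (x axis, log2) for each gene with a value in 22 process lists (rows); filled points were measured on both arrays, open points are bounds, red bars are medians and the grey band is within 2-fold. The medians run from -5.15 for the IL-4 and STAT6 response to 4.76 for collagen chains.

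Tissue macrophage genes were higher in 19 of 24 cases and lower in 1, with a median of 2.61, and 15 of the 26 listed genes also stand in other lists. The complement initiator genes C1qa, C1qb and C1qc stood at -3.24, -3.05 and -1.29 in maDCs and at 1.0, -0.40 and 2.73 in sDCs. Apoe, the lipid carrier, stood at 1.16 in imDCs, 2.45 in maDCs, 7.37 in sDCs and 7.17 with the antibody, and Mrc1 at 0.84, -2.20, 4.07 and 3.81. Maf, a transcription factor gene that holds macrophages differentiated, was higher by 2.65. The efferocytosis receptor gene Mertk stood at -1.82 and 0.75, the IgG receptor gene Fcgr1 (CD64) at 3.58 and 5.59, and Trem2 at 5.23 and 7.09. Cd163, a haemoglobin scavenger, was at least 12.6-fold higher. Not every macrophage gene followed. Adgre1, a surface receptor gene of most macrophages, stood at 6.45 in maDCs and 6.06 in sDCs. Siglec1 differed by 0.73 and Gpnmb by -0.97, Timd4 was at least 9.63-fold lower, and Lyve1 and Vsig4 were dim on both arrays.

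Monocyte genes split, with 7 of 15 higher and 5 lower (median 0.83). F13a1 stood at 0.43 in maDCs, 6.87 in sDCs and 6.81 with the antibody, and Itgam (CD11b) at 2.88 and 4.35, so that CD11b and CD11c transcripts differed in opposite directions. Ly6c1 and Ly6c2, markers of classical monocytes, differed by -1.62 and -2.01. Lyz2, lysozyme, differed by 0.58 on its brightest probe and 3.26 on another.

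Among scavenger and apoptotic cell receptors 11 of 25 were higher and 6 lower (median 0.36). Besides Gas6, Mrc1 and Mertk, the higher ones included the collectin gene Colec12 (4.64), Lrp1 (3.12), Stab1 (2.64) and Pros1, the second bridging ligand (2.42). Lower were Olr1, the receptor for oxidized lipoprotein (1.94 in maDCs, -5.37 in sDCs), Marco (-3.76) and Axl, a relative of Mertk (-3.03). Axl and Mertk thus differed in opposite directions while their shared ligand gene was higher. Cd36 lay within 2-fold (-0.05).

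Fc receptors had 3 of 8 members higher and 1 lower (median 0.44). Fcgr4 stood at -0.10 in maDCs and 3.27 in sDCs, Fcgr1 was higher by 2.01 and the neonatal receptor gene Fcgrt by 1.46, while the inhibitory Fcgr2b differed by 0.00. Fcer1a, the IgE receptor chain, stood at 1.89 and -4.41. Of 17 C-type lectins 7 were higher and 4 lower (median 0.11 or higher): Clec4a2 and Clec4b1, of the DC immunoreceptor family, were higher by 2.93 and 2.79, Clec7a (Dectin-1) differed by -3.86 and Ly75 (DEC-205) by -3.80, and Clec4n (Dectin-2) by -0.87.

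Complement genes were higher in 9 of 21 cases and lower in 4 (median 0.22 or higher). Regulators and receptors were among the higher, with Serping1 (C1 inhibitor) at least 21.3-fold, C3ar1 by 3.67, Cd59a by 2.69 and C5ar1 by 2.13. The alternative pathway gene Cfb stood at 5.24 in maDCs and 1.56 in sDCs. Cd55 differed by -3.29, and C3 by -0.89 (-2.08 on another probe). Lysosomal enzymes had 23 of 30 members within 2-fold, 4 higher and 3 lower (median 0.40), a share of higher genes near the 13.9% over all genes. The class II processing proteases Ctss and Lgmn differed by 0.61 and 1.92, Ctsl by 0.90 and Ctsk by 1.25, whereas Ctse, an aspartic protease of antigen-presenting cells, stood at 4.69 in maDCs and -0.76 in sDCs. Atp6v0d2, a proton pump subunit, differed by -3.99.

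Extracellular matrix transcripts were the other large group on the sDC side. Of 18 collagen chain genes with a value 13 were higher and 1 lower, with a median of 4.76 or higher. The type I chains stood at -2.69 (Col1a1) and -1.82 (Col1a2) in maDCs, 5.57 and 5.52 in sDCs, and 4.77 and 4.68 with the antibody. Col5a2, Col6a1, Col11a1 and Col16a1 were not well above background in maDCs and at least 64.4-fold, 41.3-fold, 23.3-fold and 82.6-fold higher in sDCs. The basement membrane chain Col4a1 was higher by 1.63, Col18a1 by 5.47, and Col14a1 was the 1 lower (-3.16). Enzymes that fold and crosslink collagen were higher in 9 of 19 cases and lower in 3 (median 0.93 or higher). Serpinh1 stood at -3.29 in maDCs and 4.02 in sDCs, Pcolce, which aids procollagen cleavage, was higher by 5.79, Loxl1 and Fkbp10 at least 108-fold and 87.9-fold, and Lox, the founding lysyl oxidase, by 1.64.

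Matrix glycoproteins and proteoglycans were higher in 24 of 28 cases and lower in 1 (median 4.04 or higher). Sparc stood at -4.02 in maDCs and 3.79 in sDCs, Dcn (decorin) at -1.23 and 3.90, Fn1 (fibronectin) at -3.87 and 0.90, and Lum (lumican) at -4.49 and 0.67. Postn (periostin) was at least 87.0-fold higher and Fbln2 higher by 7.78. Nid1, of basement membranes, was the 1 lower (-1.21), and Eln lay within 2-fold (-0.12). Metalloproteinases and their inhibitors were mixed (9 of 22 higher, 5 lower, median 0.67): Timp2 stood at -0.52 and 5.35, Adamts5 was higher by 4.86 and Mmp3 by 4.76, whereas Mmp13 differed by -3.18 and the gelatinase gene Mmp2 by -2.21.

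Markers of mesenchymal stromal cells, the layer on which sDCs formed, were higher in 20 of 27 cases and lower in 4 (median 1.68 or higher). Of the 28 listed genes, 15 also stand in other lists, some of them in the collagen and matrix lists above. Pdgfra, a receptor of stromal progenitors, stood at -5.51 and not well above background in maDCs, at -0.09 in sDCs and at -1.06 with the antibody. The mesenchymal transcription factor genes Prrx1 and Twist2 were at least 83.2-fold and 90.2-fold higher. Ly6a, which encodes Sca-1, the antigen by which the stromal cells were chosen, was instead at 1.51 in maDCs and 0.51 in sDCs, and Thy1 at 6.63 and 4.72 (a difference of -2.09 on another probe). Eng differed by 0.10 and Vcam1 by -1.57, Lepr was dim on both arrays, and the maDC array itself carried Thy1, Dcn, Lox and Pdgfrb above background. Smooth muscle genes were higher in 8 of 12 cases and lower in none (median 3.12 or higher), Tagln being higher by 3.85 and Cnn1 at least 76.2-fold. Acta2 differed by -0.65 on its brightest probe but at 4.23 and 4.54 on 2 others, so its direction is not settled. No osteoblast gene had a value of 2-fold or more higher (4 of 6 lower, median -1.5), and 4 of the 10 listed were dim on both arrays. Sp7 was well above background in sDCs and not in maDCs, at -5.76 and -6.06, so the size of its difference is unknown.

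**Figure D4:**
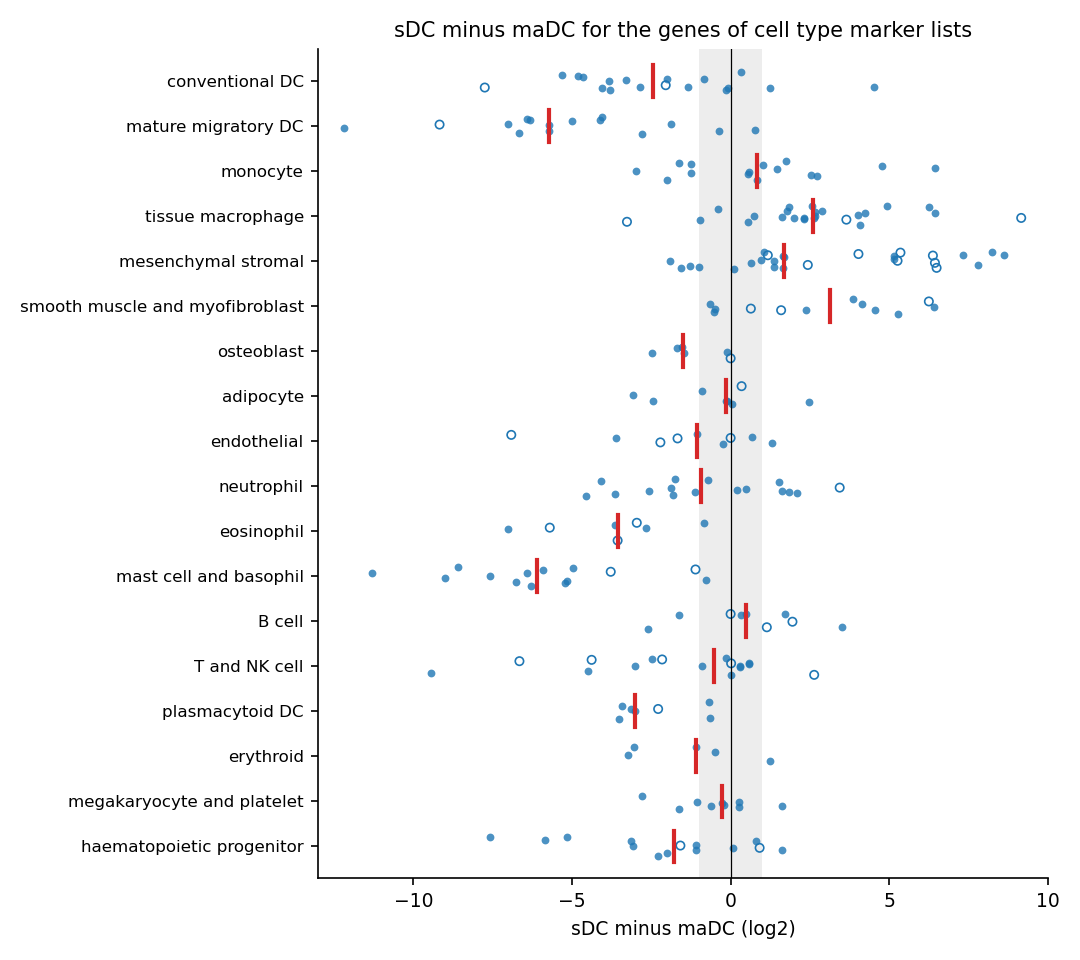
Difference between sDCs and maDCs (x axis, log2) for each gene with a value in 18 cell type marker lists (rows); filled points were measured on both arrays, open points are bounds, red bars are medians and the grey band is within 2-fold. Tissue macrophage, mesenchymal and smooth muscle medians lie at 2.61, 1.68 and 3.12, and those of mature migratory DCs and of mast cells and basophils at -5.72 and -6.11.

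Stromal and macrophage transcripts were both higher in sDCs, and the antibody-treated culture gives a second view of them. From sDCs to antibody-treated sDCs, the median over genes well above background on both arrays was -0.74 for collagen chains, -0.78 for matrix glycoproteins and -0.73 for the mesenchymal markers. It was -0.24 for the tissue macrophage list, -0.02 for the monocyte list, 0.00 for class II genes and -0.02 over all 13809 such genes. Other lists moved further between the same arrays, with medians of -0.99 for platelet and megakaryocyte genes and 1.0 for neutrophil genes. The collagen, matrix and mesenchymal lists were thus not the ones that moved most. Each value sets 1 array against another. The collagen, matrix and mesenchymal lists share genes, Col1a1, Dcn and Sparc among them, so their medians are not independent. With the antibody Col1a1, Col3a1, Sparc and Dcn differed from sDCs by -0.80, -0.98, -0.92 and -0.97, and F13a1, Sirpb1a, Apoe and Mrc1 by -0.05, -0.03, -0.20 and -0.26. Not all macrophage genes lay near 0, since C1qa and C1qc differed by -0.86 and -0.94. These values share the sDC array with the main comparison. The summed level of the mesenchymal list was 6.80 in maDCs, 7.68 in sDCs and 6.87 with the antibody, but Thy1, which differed the opposite way, carried most of the maDC sum with its level of 6.63. By the median of its genes the list was higher than in maDCs with the antibody too (1.44). The part of stromal cells, carried along from the layer, in the collagen and matrix values was not tested.

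**Figure D5:**
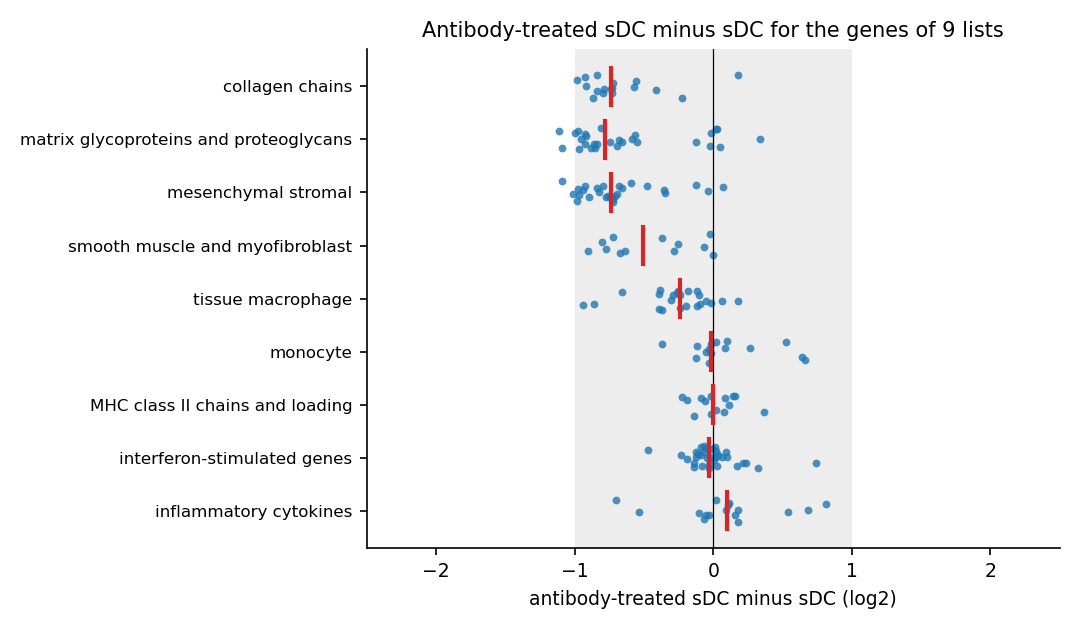
Difference between antibody-treated sDCs and sDCs (x axis, log2) for each gene well above background on both arrays in 9 lists (rows); red bars are medians and the grey band is within 2-fold. The collagen, matrix and mesenchymal medians lie at -0.74, -0.78 and -0.73 and the class II and interferon medians at 0.00 and -0.03. Between the same arrays the platelet and megakaryocyte median was -0.99 and the neutrophil median 1.0.

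Growth factor pathways were mostly mixed. In the IGF list 7 of 12 were higher and 1 lower (median 1.74). Igf2 stood at -6.50 and not well above background in maDCs and at 2.03 in sDCs, Igf1 was higher by 1.58, the binding protein gene Igfbp6 by 4.55, and Igfbp5 differed by -3.92. TGF-beta and BMP genes were higher in 9 of 30 cases and lower in 5 (median 0.10): the latent binding protein gene Ltbp2 was higher by 4.23, the receptor gene Tgfbr2 by 2.78 and Smad6 by 3.0, while Inhba, an activin chain, differed by -3.67. In the VEGF, PDGF and FGF list 8 of 22 were higher and 8 lower (median 0.65), the growth factor genes Fgf7, Angpt2 and Vegfc differing by 4.27, 3.93 and -3.0. The Wnt list had 9 of 21 members higher and 3 lower (median 0.60 or higher), the secreted inhibitor gene Sfrp1 being higher by 5.34 and Dkk2 at least 65.5-fold. Notch genes had 9 of 17 members lower and 2 higher (median -1.10). The 2 were Jag1, a ligand found on stroma (1.08 in maDCs, 2.74 in sDCs), and Notch4 (2.84), while the target gene Hey1 differed by -3.83 and the ligand gene Dll1 at least 13.3-fold lower.

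The list of DNA replication and mitosis genes had 19 of 30 members lower and 1 higher (median -1.39). It also counts the cell cycle inhibitor genes Cdkn1a and Cdkn2a. Mki67 stood at 5.81 in imDCs, 4.53 in maDCs, 2.49 in sDCs and 2.77 with the antibody. Top2a stood at 1.42, -0.95, -2.5 and -2.15 in the same order, and Ccna2 at 4.2, 2.51, 0.49 and 0.62. In all 3 genes imDCs were highest and both stroma-formed cultures lowest. The replication licensing genes Mcm2 to Mcm7 lay within 2-fold, from -0.99 to -0.41. Ccnd1, the growth factor-induced cyclin, was the 1 higher gene, at -2.39 in maDCs, 2.75 in sDCs and 2.70 with the antibody. Bub1 differed by -3.39 on its brightest probe and -0.49 on another.

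Glycolysis and hypoxia genes leaned towards sDCs, with 10 of 27 higher and none lower (median 0.73). Pdk1, which diverts pyruvate from mitochondria, stood at 0.70 in maDCs and 3.72 in sDCs. Ankrd37 was higher by 2.62, Bnip3 by 1.83 and the oxygen sensors Egln1 and Egln3 by 1.5 and 1.41. The enzymes Ldha, Aldoa and Gapdh differed by 0.28, 0.46 and 0.57. The hypoxia core ACGTG stood in 20 of the 27 promoters of this list (74.1%), in 21.8% of all 27025 genes, in 27.5% of the 11913 with a value, in 27.0% of those 2-fold or more higher and in 23.0% of those lower. Respiratory chain genes were nearly level, with 27 of 28 within 2-fold and 1 lower (median -0.32).

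Genes of cholesterol synthesis and efflux had 8 of 26 members lower and 3 higher (median -0.60), beside 16.3% and 13.9% of all genes. The synthesis enzyme gene Idi1 differed by -1.98 and Cyp51 by -2.09, while Apoe and the efflux pump gene Abca1 (1.22) were higher. Of 15 antioxidant genes 9 were lower and 6 within 2-fold (median -1.08). Nqo1, a target of the factor NRF2, stood at 2.81 in maDCs and -2.03 in sDCs. Gclc differed by -1.66, Srxn1 by -1.55 and the metallothionein genes Mt1 and Mt2 by -1.12 and -1.05. Iron handling genes had 6 of 14 members lower, 1 higher and 7 within 2-fold (median -0.06). Hamp, the gene of hepcidin, stood at 3.23 in maDCs and -4.30 in sDCs. The transferrin receptor gene Tfrc differed by -3.25 and the exporter gene Slc40a1 by -2.67, and the ferritin genes Fth1 and Ftl1 lay within 2-fold (0.20 and 0.10).

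Lipid mediator genes went both ways. Ltc4s and Ptgs1, which make leukotriene C4 and prostaglandin precursors, differed by -5.28 and -4.12, while the receptor genes Cysltr1, Ltb4r1 and Ptger2 were higher by 3.20, 2.97 and 1.76. Ptger4 was lower (-2.54), and in all 4 of 18 were higher and 6 lower (median -0.19). Survival and death genes had 11 of 17 members within 2-fold, 4 lower and 2 higher (median 0.05), beside 16.3% lower and 13.9% higher over all genes. At the extremes, Bcl2a1b, which has near-identical copies, differed by -3.73 and the death-promoting Pmaip1 by -4.64, while Mcl1 was higher by 1.37. Adhesion genes went both ways (7 of 25 higher, 7 lower, median -0.35): Itgae (CD103) differed by -4.82 and the integrin gene Itga9 was higher by 4.23.

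Markers of other blood cells differed between the same 2 arrays and stand beside the groups above. Mast cell and basophil genes were lower in sDCs in 13 of 14 cases (median -6.11 or lower), with a summed level of 7.58 in maDCs, -0.24 in sDCs, 0.09 with the antibody and 4.95 in imDCs. Kit, the stem cell factor receptor, stood at -0.65 in maDCs and -5.81 in sDCs, Fcer1a at 1.89 and -4.41, Gata2 at 2.94 and -4.65, and Mcpt8, a basophil protease, at 3.42 and -3.36, and Tpsb2 was dim on both arrays. Both arrays of cells that had passed a CD11c selection thus held these transcripts. Their part in the differences of Il4, Ltc4s, Gzmb, Csf2 and other cytokine genes was not tested. Eosinophil genes were lower in 6 of 7 cases (median -3.56 or lower), with Prg2 at 1.24 and -5.76, and a summed level of 2.00 in maDCs and -2.76 in sDCs.

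Neutrophil genes went both ways, with 5 of 16 higher and 8 lower (median -0.93) and summed levels of 7.19 in maDCs and 7.42 in sDCs. The early granule genes Mpo and Ctsg differed by -4.09 and -4.55, while S100a8 was higher by 2.10 and Retnlg at least 10.8-fold. The T and NK list had 7 of 16 lower and 1 higher (median -0.53), led by Gzmb and Gzma (at least 101-fold lower). The T cell receptor complex genes Cd3e, Cd3d and Cd3g differed by -0.15, 0.01 and 0.30, and Prf1 and Ncr1 were dim on both arrays. Plasmacytoid DC genes were lower in 5 of 7 cases (median -3.0 or lower), and Siglech was dim on both arrays. Progenitor genes had 10 of 14 members lower and 1 higher (median -1.79 or lower), with Myb at 1.45 in maDCs and -4.41 in sDCs and Cd34 at 3.25 and 0.18, so sDCs, which were grown from progenitors, held less of these transcripts than maDCs. Endothelial genes had 5 of 9 members lower and 1 higher (median -1.08), and B cell genes higher in 4 of 9 and lower in 2 (median 0.49 or higher), with Ms4a1 (CD20) at -5.38 in maDCs and -1.87 in sDCs.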

How the data were processed

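RNA of 4 mouse cultures, 1 array each, was measured on 1-colour Agilent 60-mer arrays. The processed intensity of each spot was deposited by the authors as Feature Extraction output, background-subtracted by that software (version 10.5.1.1, per the file headers, and 9.1, per the submitters' processing notes), and the log2 value table was deposited by the authors with its normalization unstated. Its columns followed log2 processed signal with r of 0.997 to 1.00 and medians of 6.31 to 6.32. The main setting here was log2 of the processed signal minus the 75th percentile over the 43379 non-control spots of an array. Probe positions are those of the file headers (mm9). Control spots and outlier spots (76 to 148 an array) were left out, 0 spots were saturated, spots of a probe were averaged, and in a bound the dim probe counted at its measured signal, or at the lowest detected signal of that array where this was larger. The brightest probe stood for a gene, and 25263 probes were named by accession, 6233 by symbol, 1603 by synonym and 8075 not at all. Genes named by size were the 15 largest measured differences and 6 largest bounds each way, and the others came from 56 gene lists: their key genes, the 6 largest differences of each and further members chosen after their values were seen. The members and lists were chosen with earlier results of these data known. The code was tested on simulated data. Other backgrounds, scalings, filters, probes and thresholds were tried, with R 4.3.3 and limma 3.58.1 for normexp and Python 3.11.15 and numpy 2.4.6 for quantile scaling. With 1 array a group, precision rests on that number, and slide, culture and group effects have no replicate. A few list members are not reported here.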

Additional observations from a re-analysis of the deposited data

How the results depend on the processing

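Genes at least 2-fold higher and lower numbered 2080 and 2451. A 4-fold threshold left 696 and 1085, while quantile scaling, normexp background, the deposited value table, median centring, filtering on both arrays, no filter and the median probe gave between 1610 and 2637 higher and between 1907 and 2925 lower. With no filter the median of all genes was -0.12. Of 393 named genes with a value, normexp moved 134, the antibody array 89, no filter 40 and the median probe 26 by more than 1.5-fold, and of 56 list medians normexp moved 10. For class II genes the median of -3.93 became -2.97 with normexp and -3.26 with no filter. For collagen chains 4.76 became 3.44 with normexp, 3.91 with both arrays required and 4.12 with the antibody-treated sDC array, and for mast cell and basophil genes -6.11 became -4.57 with normexp. Cytokine genes went from -2.32 to -1.39 with both arrays required, IL-4 response genes from -5.15 to -5.83 and mesenchymal genes from 1.68 to 2.37 with no filter. Ltf turned from -1.13 to 0.68 on the antibody array, an alternative chosen after the data were seen. The cause of these moves was not tested. No paired analysis was possible because each group has 1 array, whose replicate number is only a name. Dim probes limit the folds, which are bounds for 1207 genes towards sDCs and 559 towards maDCs, and 4806 genes were dim on both arrays.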

Other observations

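Markers outside the immune and stromal groups were also set side by side, chosen after their values were seen. Xist, the RNA of the inactive X chromosome in female cells, stood at 1.23 in maDCs and -1.30 in sDCs, a difference of -2.53, and at 0.60 in imDCs and -1.90 with the antibody. The Y chromosome genes Kdm5d, Ddx3y, Uty and Eif2s3y were well above background on both arrays and differed by 0.29, 0.40, 0.55 and 0.73. Transcripts typical of female and of male cells were thus measured in both cultures. The part of the sex of the donor cells in the other differences was not tested.

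Of 9 platelet and megakaryocyte genes 5 lay within 2-fold between maDCs and sDCs, against 10469 of 15000 over all genes, with 1 higher and 3 lower (median -0.27). Their median difference between antibody-treated sDCs and sDCs was -0.99. Pf4, a platelet chemokine, stood at 6.77 in maDCs, 6.55 in sDCs and 6.22 with the antibody. Ppbp, another such chemokine, stood at 1.30, 1.56 and 0.08 in the same order. The neutrophil list went the other way between the 2 stroma-formed cultures, with a median of 1.0 and summed levels of 7.42 in sDCs and 8.18 with the antibody. Camp, an antimicrobial peptide of neutrophil granules, stood at -2.38 in sDCs and -1.33 with the antibody, and Ngp, another granule protein, at -2.99 and -1.28. Their part in the other differences of the antibody array was not tested.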
